A study of Homo sapiens with 12 samples.

Results

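The chemokine ligands CCL3, CCL4, CCL4L1, CCL4L2, CCL5, XCL1 and XCL2 were selected by gene symbol. They were 7 of the 17589 genes in the gene table, and the transcript table held 28 of its 90572 rows for them. RNA-seq had been performed on unstimulated YT cells, a human NK-like lymphoid line, in 12 libraries from 4 groups of 3. CTRL cells carried a lentivirus with eGFP. hnCD16 cells carried a CD16a receptor with a changed ectodomain and the natural CD16a cytoplasmic tail. FR1 cells carried hnCD16-2B4-DAP10-CD3ζ, in which the hnCD16 ectodomain and the CD16 transmembrane segment were joined to cytoplasmic parts of 2B4, DAP10 and CD3ζ. FR2 cells carried hnCD16-DAP10-CD3ζ, the same design without 2B4. The receptors were driven by the constitutive hEF1A promoter, and eGFP-positive cells of each group had been sorted and expanded before RNA was taken. The sources did not state that the 3 libraries of a group came from separate cultures, so p-values measured the spread between these libraries, which may be technical.

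Chemokines are small secreted proteins that bind G protein-coupled receptors and direct the migration of leukocytes. Among their receptors, CCR1 binds CCL3 and CCL5, and CCR3 binds CCL5. XCL1 and XCL2 are the lymphotactins, the ligands of XCR1, a receptor of dendritic cells that cross-present antigen. NK cells and cytotoxic T cells are known sources of all of these ligands, and activation raises their synthesis.

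Most of the genes have near-identical copies, so the coding sequences of CCL3 and its copy CCL3L3 are shown first, because such likeness sets how well reads could be told apart. In GENCODE v44 on GRCh38, CCL3 lay at chr17:36088256-36090169 on the minus strand and CCL3L3 at chr17:36194869-36196758 on the minus strand. CCL4 lay at chr17:36103827-36105621 and its copy CCL4L2 at chr17:36210924-36212878, both on the plus strand. CCL5 lay at chr17:35871491-35880793 on the minus strand. XCL1 and XCL2 lay at chr1:168576605-168582069 on the plus strand and chr1:168540768-168543997 on the minus strand. The coding sequences below, from GENCODE v44 transcripts, run 5′ to 3′ from the start codon to the stop codon, and capitals mark bases that differ between the pair or are inserted in CCL3L3.
CCL3: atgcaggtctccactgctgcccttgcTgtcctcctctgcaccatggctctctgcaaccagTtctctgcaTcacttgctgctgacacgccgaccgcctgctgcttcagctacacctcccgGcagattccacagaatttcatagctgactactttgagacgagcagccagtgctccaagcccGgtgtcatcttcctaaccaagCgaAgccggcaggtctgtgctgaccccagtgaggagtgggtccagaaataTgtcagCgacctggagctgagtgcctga
CCL3L3: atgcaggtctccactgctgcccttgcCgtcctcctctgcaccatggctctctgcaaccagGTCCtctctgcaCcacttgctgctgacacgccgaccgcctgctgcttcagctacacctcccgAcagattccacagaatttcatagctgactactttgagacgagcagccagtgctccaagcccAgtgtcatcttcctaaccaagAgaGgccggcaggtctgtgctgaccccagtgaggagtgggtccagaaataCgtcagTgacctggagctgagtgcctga

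CCL4 and CCL4L2 differed at 7 of 279 coding bases, an identity of 97.5%. CCL3 and CCL3L3 had 9 mismatched bases and 3 inserted bases, an identity of 95.7%. XCL1 and XCL2 differed at 5 of 345 coding bases, an identity of 98.6%. By contrast, CCL3 and CCL4 were identical at 66.3% of aligned coding positions. RSEM divides reads that match several transcripts between them, so the values of single genes within a copy family are uncertain. Family sums are given for CCL3 and CCL4 with their copies.

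Promoter sequence was at hand for CCL3, XCL2 and CCL3L3, and not for CCL4, CCL4L1, CCL4L2, CCL5, XCL1 and CCL3L1. The 250 bases before the RefSeq start are shown for CCL3 and CCL3L3, which moved together in the libraries described below, at chr17:36090144-36090393 and chr17:36196759-36197008 of GRCh38.p14 on the minus strand. Capitals mark matches to TATAAA on the gene strand, and to the RUNX core TGTGGT and the NFAT core GGAAA on either strand.
CCL3 promoter: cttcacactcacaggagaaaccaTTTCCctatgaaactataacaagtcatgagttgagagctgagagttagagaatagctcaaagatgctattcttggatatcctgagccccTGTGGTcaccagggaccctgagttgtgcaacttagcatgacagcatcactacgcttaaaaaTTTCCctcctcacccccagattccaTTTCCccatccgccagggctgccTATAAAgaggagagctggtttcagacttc
CCL3L3 promoter: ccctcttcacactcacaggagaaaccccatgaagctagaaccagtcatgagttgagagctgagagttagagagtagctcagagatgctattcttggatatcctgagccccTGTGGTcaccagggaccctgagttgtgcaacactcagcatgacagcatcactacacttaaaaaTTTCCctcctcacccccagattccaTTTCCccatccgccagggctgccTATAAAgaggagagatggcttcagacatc

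The promoters of CCL3 and CCL3L3 were identical at 91.0% of aligned positions. Both held TATAAA from base -29 to base -24, a word found in 6.80% of 35116 RefSeq promoters of the same length. Both held 1 TGTGGT, found in 11% of promoters. CCL3 had 3 matches to GGAAA and CCL3L3 had 2, where 55.6% of promoters had at least 1. Neither held the AP-1 word TGANTCA (6.57% of promoters) or the CRE word TGACGTCA (1.65%), each searched on both strands. No 2 of the words overlapped in these promoters, and a match describes letters only.

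The 12 libraries held between 17714566 and 18729019 expected counts, and they fell into pairs of groups that stood apart in cell type markers. FCGR3A, the gene of CD16a, whose sequence all 3 receptor constructs carry, was at 0 in the CTRL libraries, at 24.5 to 26.1 CPM (expected counts scaled by TMM library size) for hnCD16, 31.9 to 32.8 for FR1 and 57.9 to 64.0 for FR2. CD244, the gene of 2B4, of which FR1 alone carries a part, lay between 127 and 132 CPM in FR1 and between 111 and 119 CPM in FR2 (1.12-fold, adjusted p = 0.0119, not called), so it did not by itself tell which libraries carried that part. A list of 12 NK cell markers summed to between 29.7 and 37.0 CPM in CTRL and hnCD16, against 4209 to 4569 CPM in FR1 and FR2. The 7 T cell markers in the table summed to between 657 and 798 CPM in CTRL and hnCD16, and to between 36.3 and 43.1 CPM in FR1 and FR2. CD3D, a chain of the T cell receptor complex, lay between 388 and 537 CPM in CTRL and hnCD16 and at no more than 0.168 CPM in FR1 and FR2. Against the label of an NK-like line, KIR2DL4 had at most 3 counts in any CTRL or hnCD16 library, as did NCAM1 and NCR1 in hnCD16. Other markers of that list were present there. Means in CTRL and hnCD16 were 11.71 and 12.02 CPM for KLRD1, 11.01 and 10.49 for NKG7, and 6.299 and 9.838 for CD244. KLRD1, at 14.45 and 14.51 CPM in FR1 and FR2, was called in no comparison across the pairs. FCER1G was called higher in none and was called lower in FR2 against hnCD16 alone (log2 fold change -1.07, adjusted p = 0.0253 by edgeR). By contrast, 9 of the 11 tested NK cell markers were called higher in each, where between 18.3% and 19.6% of all genes were called higher. In FR1 and FR2, TYROBP was the marker of that list at 0. B cell markers summed to between 9.19 and 14.7 CPM in CTRL and hnCD16 and to between 38.3 and 47.4 CPM in FR1 and FR2, where nearly all of it was PAX5. CD79A and CD79B went the other way and were called lower in each comparison across the pairs, from 7.77 and 4.87 CPM in CTRL to 0.269 and 0.0386 CPM in FR1 (means, n = 3). Myeloid markers summed to between 6.48 and 8.31, 10.01 and 11.8, and 15.4 and 16.2 CPM in the CTRL and hnCD16, FR1 and FR2 libraries. In any comparison across the pairs, the construct and the pair of libraries therefore cannot be told apart. FR1 against FR2 and hnCD16 against CTRL were comparisons within a pair. In bulk RNA, fewer cells that make a ligand and less of its RNA per cell cannot be told apart.

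Across the groups, the 7 ligands fell into 3 patterns. CCL3, CCL4, CCL4L1 and CCL4L2 were at or near 0 in CTRL and hnCD16, low in FR2 and highest in FR1. CCL5 was present in every library, at a low level in CTRL and hnCD16 and a high one in FR1 and FR2. XCL1 was found only in the CTRL and hnCD16 libraries, and XCL2 was near the detection limit in these and at 0 in the others. Added up, the 7 genes reached 136 to 153 CPM per library for FR1 and 53.6 to 57.4 CPM for FR2, but only 8.33 to 12.7 CPM for CTRL and 10.01 to 12.96 CPM for hnCD16. A count of 0 allowed up to 3 counts per library, which averaged 0.151 CPM over the CTRL libraries, 0.162 over hnCD16, 0.173 over FR1 and 0.170 over FR2, and such limits cover counting error only.

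**Figure D1:**
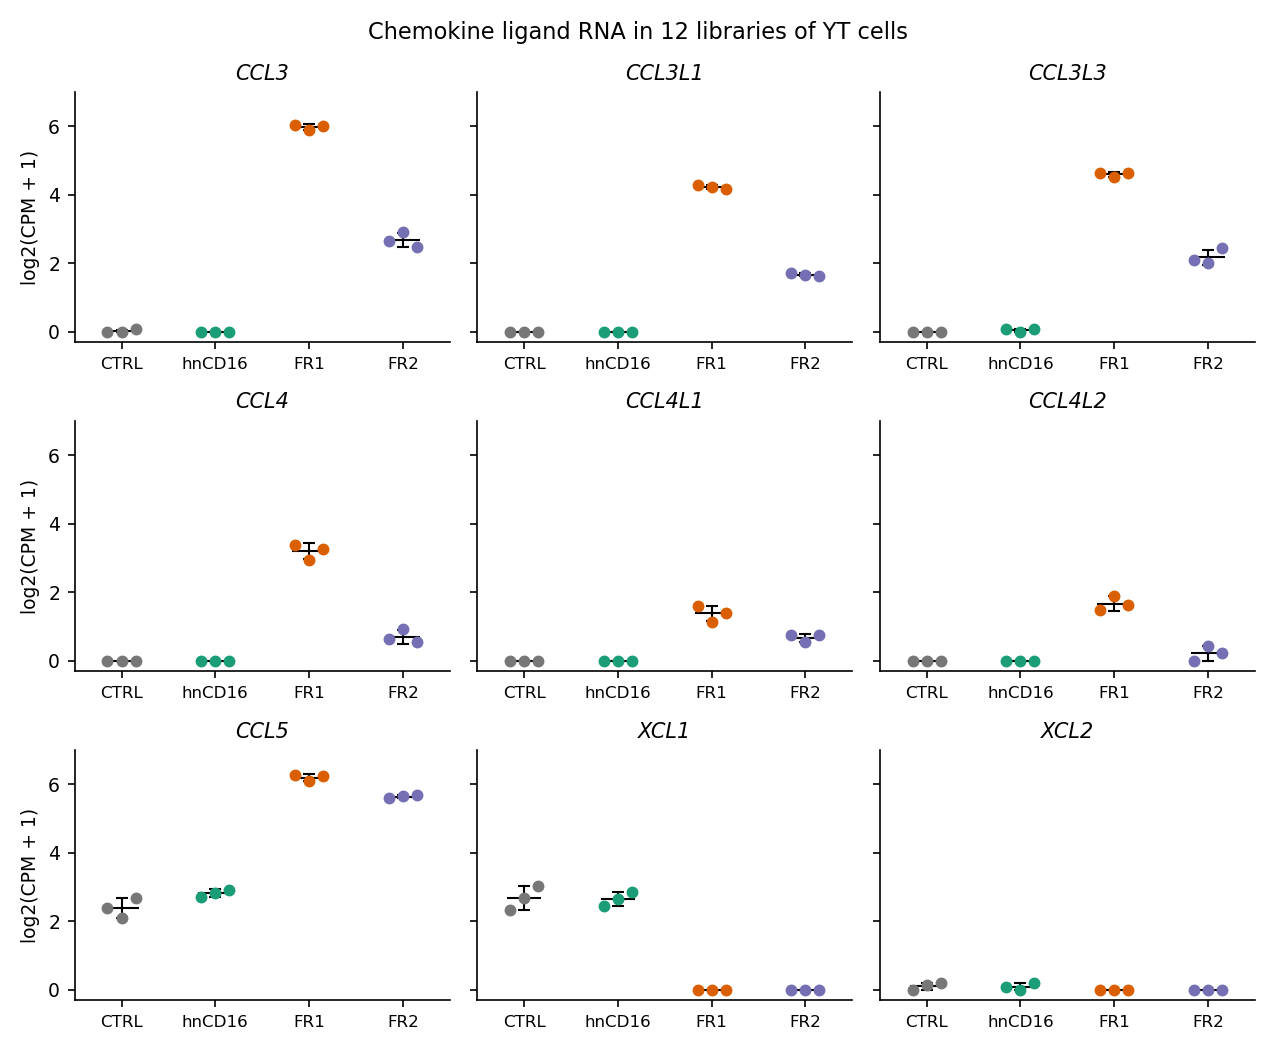
Level of each chemokine ligand, with the copies CCL3L1 and CCL3L3, as log2(CPM + 1) on the y axis in the 12 libraries by group on the x axis. Points are libraries, and black bars show the mean ± SD of 3 libraries. CCL3, CCL4 and their copies step down from FR1 to FR2 to near 0, CCL5 is present in all groups, and XCL1 is seen in CTRL and hnCD16.

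CCL3 attracts monocytes, macrophages and T cells and is made by activated NK cells. Its expected counts in FR1 were 1107, 1001 and 1118 in replicates 1, 2 and 3. In FR2 they were 95, 115 and 80. In CTRL they were 0, 0 and 1, and in hnCD16 they were 0 in all 3 libraries. No FR2 library came near the lowest FR1 library, and neither group overlapped with CTRL or hnCD16. The mean was 61.9 ± 3.52 CPM (SD, n = 3) in FR1 and 5.47 ± 0.974 CPM (SD, n = 3) in FR2, so that CCL3 was 11.3-fold higher in FR1 (log2 fold change 3.50, SE 0.10, adjusted p = 1.94e-11 by edgeR's quasi-likelihood test with Benjamini-Hochberg adjustment). Against the limit of 3 counts per library, FR1 exceeded CTRL at least 410-fold for CCL3, and FR2 exceeded it at least 36.2-fold. Against hnCD16 the bounds were 383-fold and 33.8-fold. All of these differences were far larger than the spread between libraries.

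The copies of CCL3 encode nearly the same chemokine and showed the same order of groups. CCL3L1 had 321, 308 and 296 expected counts in FR1 and 41, 38 and 37 in FR2. CCL3L3 had 410, 377 and 421 in FR1 and 58, 54 and 77 in FR2. Both were at 0 or 1 count in every CTRL and hnCD16 library. FR1 exceeded FR2 by 3.02 on the log2 scale for CCL3L1 and by 2.70 for CCL3L3, and both passed the test. With the 3 genes added up, which removes the division of reads between them, FR1 was 9.16-fold above FR2 (95% interval 8.24 to 10.2). CCL3 itself took 59.4% to 60.9% of the family's counts in the FR1 libraries and 41.4% to 55.5% in the FR2 libraries, a division made by RSEM.

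**Figure D2:**
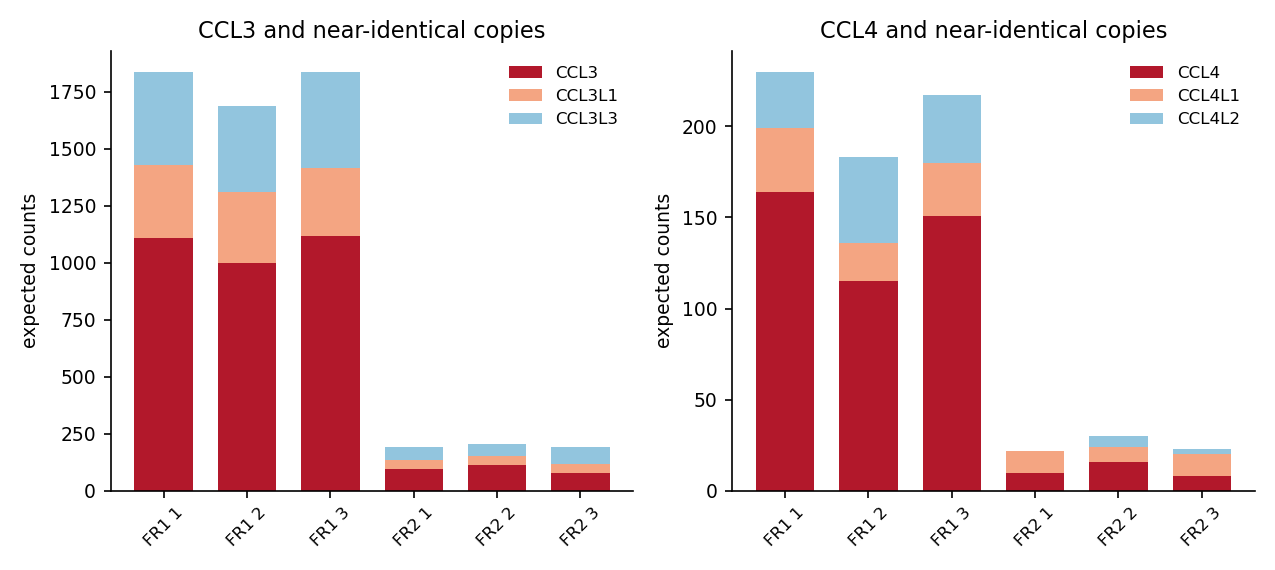
Expected counts (y axis) of CCL3 with CCL3L1 and CCL3L3 (left) and of CCL4 with CCL4L1 and CCL4L2 (right), stacked for each FR1 and FR2 library on the x axis. The CCL3 family reached between 1686 and 1838 counts in FR1 and between 194 and 207 in FR2, and the CCL4 family between 184 and 230 and between 22 and 30.

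CCL4 draws the same kinds of cells as CCL3. It had 164, 115 and 151 expected counts in FR1 and 10, 16 and 8 in FR2. CCL4 was at 0 in all 6 CTRL and hnCD16 libraries. FR1 and FR2 did not overlap, and the fitted ratio was 12.7-fold (log2 fold change 3.67, SE 0.25, adjusted p = 3.83e-07). FR1 exceeded CTRL at least 54.7-fold and hnCD16 at least 51.1-fold, and FR2 exceeded them at least 4.25-fold and 3.97-fold.

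CCL4L1 and CCL4L2 are copies of CCL4 whose number varies between human genomes. CCL4L1 had 35, 21 and 29 expected counts in FR1 and 12, 8 and 12 in FR2, which did not overlap. CCL4L2 had 31, 47 and 37 in FR1 and 0, 6 and 3 in FR2. Both were at 0 in every CTRL and hnCD16 library. FR1 exceeded FR2 by 1.43 on the log2 scale for CCL4L1 (SE 0.31, adjusted p = 0.00312) and by 3.65 for CCL4L2 (SE 0.48, adjusted p = 7.71e-05). CCL4L2 in FR2 was so close to the limit that its bound against CTRL was 1.13-fold, and its fitted difference from CTRL (adjusted p = 0.0145) was lost without FR2 replicate 2 (adjusted p = 0.0705). Against hnCD16 the bound was 1.06-fold, and leaving out the same library also lost that call (adjusted p = 0.076). CCL4 took 62.7% to 71.3% of the family's counts in FR1, whereas in FR2, where the family totalled 22 to 30 counts, it took 34.0% to 54.7%. For the family sum, which does not depend on that division, FR1 was 8.53-fold above FR2 (95% interval 6.65 to 10.9).

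CCL5, also called RANTES, recruits T cells, monocytes and eosinophils and is kept as a ready transcript in cytotoxic lymphocytes. It had 84, 66 and 108 expected counts in CTRL and 102, 114 and 124 in hnCD16. In FR1 it had 1306, 1163 and 1307, and in FR2 840, 870 and 877. Every FR1 library lay above every FR2 library, and these lay above all CTRL and hnCD16 libraries. Mean levels were 72.5 ± 4.57 CPM for FR1, 48.8 ± 1.62 for FR2, 6.10 ± 0.522 for hnCD16 and 4.32 ± 1.04 for CTRL (SD, n = 3 each). Because CCL5 was measured in all groups, its ratios were not bounds. Relative to CTRL, CCL5 rose 16.7-fold in FR1 (adjusted p = 1.78e-16) and 11.3-fold in FR2 (adjusted p = 2.14e-15). Relative to hnCD16, it rose 11.9-fold in FR1 (adjusted p = 6.04e-16) and 7.99-fold in FR2 (adjusted p = 9.61e-15).

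Within the pairs of libraries the differences in CCL5 were small. FR1 was 1.49-fold above FR2 (95% interval 1.33 to 1.66, adjusted p = 2.43e-05), under the fold of 2 that the call required. hnCD16 was 1.41-fold above CTRL (95% interval 1.15 to 1.73, adjusted p = 0.00882), also under that fold. The lowest hnCD16 library, at 5.55 CPM, stood just above the highest CTRL library, at 5.37 CPM. Without CTRL replicate 2 the log2 difference between hnCD16 and CTRL was 0.30 and its adjusted p was 0.0852, so this order rested in part on 1 library. With all libraries kept, the adjusted p was also above 0.05 with library size as the only scaling (0.0515), with the 2 groups fitted alone (0.0556) and with limma on log2(TPM + 1) (0.0581) or log2(TPM + 0.1) (0.0606). The order of CCL5 was therefore FR1, FR2, hnCD16 and CTRL, with the last 2 the least clearly separated.

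The levels of CCL3 and CCL5 changed order between FR1 and FR2. In TPM, RSEM's unit that allows for transcript length, CCL3 was at 142 ± 8.66 and CCL5 at 103 ± 6.82 in FR1 (SD, n = 3). In FR2, CCL3 was at 12.7 ± 2.1 TPM and CCL5 at 70.0 ± 1.79 TPM. The ratio of CCL3 to CCL5 within a library was 1.37 to 1.39 in FR1 and 0.148 to 0.213 in FR2, with no overlap. With the copies of CCL3 added, the ratio was 2.26 to 2.33 in FR1 and 0.357 to 0.383 in FR2. CCL4 stayed below CCL3 in both groups, with 22.7 ± 3.94 TPM in FR1 and 1.81 ± 0.666 TPM in FR2, and the ratio of CCL3 to CCL4 overlapped between FR1 (5.64 to 7.25) and FR2 (5.85 to 8.60).

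CCL5 reads were divided between the RefSeq transcripts NM_002985 and NM_001278736, the latter with an effective length 1.07 times that of the former. GENCODE v44 lists coding CCL5 transcripts of 1217 bases in 3 exons and of 1299 bases in 4 exons. NM_001278736 took 32.1%, 33.1% and 72.5% of the CCL5 counts in the CTRL libraries and 40.6%, 60.5% and 37.1% in the hnCD16 libraries. It took 15.6%, 15.7% and 14.1% in FR1 and 13.7%, 16.6% and 20.9% in FR2. The share was lower in all 6 FR1 and FR2 libraries than in any CTRL or hnCD16 library, while FR1 and FR2 overlapped. In CTRL and hnCD16 the share rested on 21.8 to 78.2 estimated counts per library, and it is a share estimated by RSEM, so no counting interval is given. An exact permutation test of 3 against 3 libraries cannot go below p = 0.1, and no test of the share was made.

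**Figure D3:**
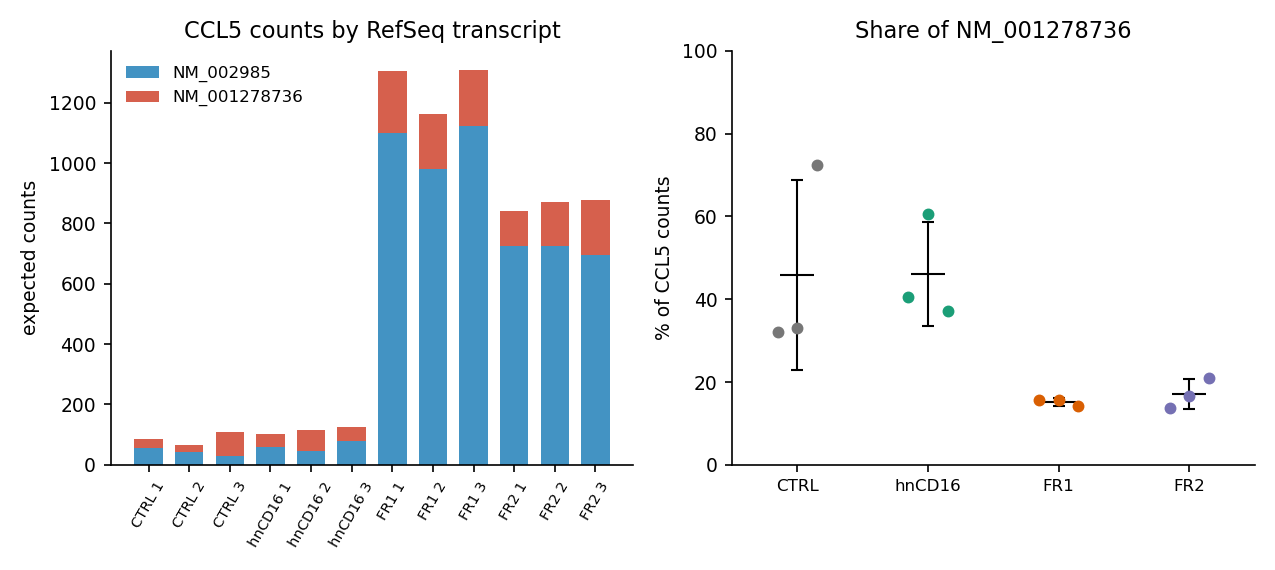
Left, expected counts of CCL5 (y axis) by RefSeq transcript, stacked for each of the 12 libraries. Right, percent of CCL5 counts on NM_001278736 by group, with points for libraries and black bars for the mean ± SD (n = 3): 45.9 ± 23.0 for CTRL, 46.1 ± 12.6 for hnCD16, 15.1 ± 0.888 for FR1 and 17.1 ± 3.62 for FR2.

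At the transcript level, 11 of the 28 rows passed the filter on low counts. Several rows were placements of 1 RefSeq transcript at more than 1 locus. The 3 placements of CCL3 had equal counts in each library, whereas those of CCL4, CCL4L2 and CCL5 differed. Between FR1 and FR2, 3 of 11 rows were called, which were these 3 rows of CCL3, all higher in FR1, where 0.254% of all 56640 transcripts tested were called and 0.0989% higher in FR1. None of the 3 was called once any 1 of the 6 FR1 and FR2 libraries was left out. With placements added up, which left 6 accessions, a choice made after the data were seen, CCL3 alone was called between FR1 and FR2 (log2 fold change 3.48, adjusted p = 0.00572), whereas CCL4 had the same direction (3.65, adjusted p = 0.0762). On the same sums, NM_002985 of CCL5 rose by 4.78 on the log2 scale from CTRL to FR1 (adjusted p = 7.32e-07) and NM_001278736 by 2.34 (adjusted p = 0.00595), and the difference between these 2 changes was not tested. Across the pairs, 11 rows (FR1 against CTRL), 9 (FR2 against CTRL), 10 (FR1 against hnCD16) and 8 (FR2 against hnCD16) of 11 were called, where 14.7%, 14.8%, 14.8% and 15.3% of all transcripts were. Between hnCD16 and CTRL, edgeR, DESeq2 and limma each called 0 of 11 rows, with 1 at an unadjusted p under 0.05 by edgeR, where 0.162% of transcripts were called. The rows of CCL3, CCL4 and CCL4L1 were at 0 after rounding in both of these groups. A call was therefore possible only for the rows of CCL5 and XCL1.

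XCL1 attracts dendritic cells that carry XCR1, and it went the other way. Its expected counts were 79, 109 and 144 in CTRL and 81, 97 and 117 in hnCD16. They were 0 in all 6 FR1 and FR2 libraries. CTRL and hnCD16 overlapped, with 5.55 ± 1.57 and 5.29 ± 0.906 CPM (SD, n = 3), and their ratio was 0.952 (95% interval 0.710 to 1.28, adjusted p = 0.82). Against the limit of 3 counts per library, XCL1 was at least 32.1-fold lower in FR1 and at least 32.7-fold lower in FR2 than in CTRL, and at least 30.6-fold and 31.2-fold lower than in hnCD16.

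Between 94.0% and 100% of XCL1 counts were assigned to the predicted transcript XM_011509865, and at most 6.45 counts in a library to the curated transcript NM_002995. The effective length of the former was 2.44 to 2.50 times that of the latter in the 4 libraries where both could be compared. In TPM, XCL1 stood at 3.97 ± 1.39 in CTRL and 3.41 ± 0.768 in hnCD16 (SD, n = 3), below CCL5 in the same libraries (7.04 ± 1.77 and 8.95 ± 1.12). XCL2, the near-identical copy of XCL1, had 0, 2 and 3 expected counts in CTRL, 1, 0 and 3 in hnCD16 and 0 in FR1 and FR2. It did not pass the filter on low counts, no fold was computed for it, and a difference was not detectable at this depth.

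FR1 and FR2 differ in the construct by the 2B4 part, and this comparison asked which ligands differed between them. Of the 6 ligands tested, 4 were called, CCL3, CCL4, CCL4L1 and CCL4L2, all higher in FR1. Among all 13657 genes tested, 1.93% were called in either direction and 0.439%, or 60 genes, were called higher in FR1. CCL4, CCL4L1 and CCL4L2 passed the filter through their FR1 values, while the FR2 counts of CCL3 were also enough to pass. Copies share reads, and the genes include some that the study had picked out on these same libraries. The count is therefore no independent evidence of a direction. Ordered by fold change among those 60 genes, CCL4 came in place 5, CCL4L2 in place 6, CCL3 in place 8 and CCL4L1 in place 31. Ordered by p, CCL3 came first, the copies CCL3L3 and CCL3L1 in places 3 and 4, and CCL4 in place 8. The median log2 fold change over the 6 tested ligands was 2.46 and that over all genes -0.0035, a description under the same limits. XCL1 entered that median at 0 because it had no counts in FR1 or FR2, so it could not be called. The call of 4 held when any 1 of the 6 libraries was left out. DESeq2 also called 4 of the 6 ligands, and limma on log2(TPM + 1) called 3.

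**Figure D4:**
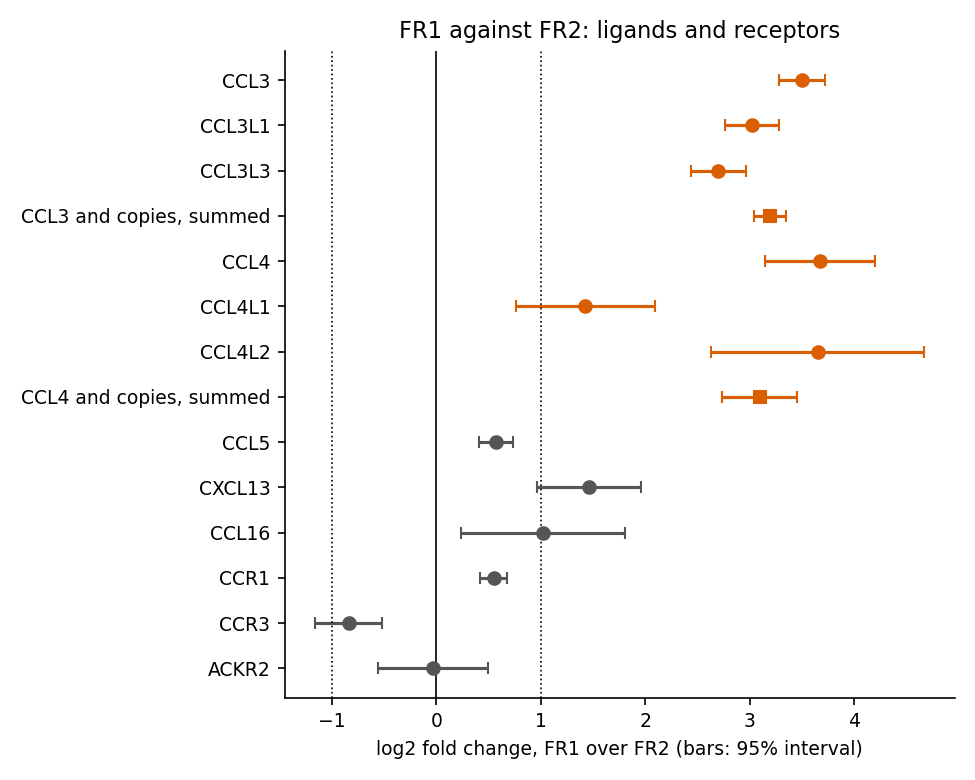
Log2 fold change of FR1 over FR2 (x axis) with its 95% interval for chemokine ligands, the sums of CCL3 and CCL4 with their copies (squares), CXCL13, CCL16 and receptors; 0 is the solid line and the fold required for a call the dotted lines. CCL3, CCL4 and their copies lie between 1.43 and 3.67, and CCL5, at 0.57, and the receptors lie inside the dotted lines.

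Among the markers of cell types, edgeR called 1 NK cell marker and 1 myeloid marker between FR1 and FR2, where 1.93% of all genes were called. Of 11 NK cell markers tested, 6 had an unadjusted p under 0.05 by edgeR, and GNLY, which encodes a granule protein, was the 1 called, with 28.0 to 31.7 CPM in FR1 and 8.81 to 9.91 CPM in FR2 (3.08-fold, adjusted p = 4.99e-08). Of 5 myeloid markers tested, CSF1R was lower in FR1 (1.74 to 2.20 CPM) than in FR2 (5.21 to 5.76 CPM), a 2.78-fold difference called by edgeR (adjusted p = 2.98e-05) and DESeq2 but not by limma, and CD14 had at most 3 counts in any library. Of the 7 T cell and 3 B cell markers tested, edgeR, DESeq2 and limma called 0, and at an unadjusted p under 0.05 edgeR had 1 of each. FCGR3A lay lower in FR1 than in FR2, by less than the fold required for a call. The part of these differences in the ligand values was not tested.

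Between hnCD16 and CTRL, 0 of 6 ligands were called, where 0.527% of all genes were. At an unadjusted p under 0.05 by edgeR, CCL5 was the 1 ligand to pass, and DESeq2 and limma on TPM also called 0. CCL3, CCL4, CCL4L1 and CCL4L2 were under the counting limit in both groups, so no fold was given for them.

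Across the pairs, all 6 tested ligands were called in each of the 4 comparisons: CCL3, CCL4, CCL4L1, CCL4L2 and CCL5 higher and XCL1 lower in FR1 and FR2. DESeq2 called the 6 in each as well, while limma on log2(TPM + 1) called 5 in FR2 against CTRL and in FR2 against hnCD16, where CCL4L2 had a log2 difference of 0.40. This has to be read against the 38.0% (FR1 against CTRL), 38.2% (FR2 against CTRL), 38.3% (FR1 against hnCD16) and 39.5% (FR2 against hnCD16) of all genes called. Of all genes, 18.3%, 18.7%, 18.7% and 19.6% were called higher in these 4 comparisons, in the same order, and 19.8%, 19.6%, 19.6% and 19.8% lower. In addition, 5 of the 6 ligands passed the filter through 1 pair of groups alone. The comparisons share their libraries, and the marker sums given above moved with them.

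The receptors of these ligands were examined from a list of 4 genes. CCR1, which binds CCL3 and CCL5, had at most 1 count in any CTRL or hnCD16 library and 60.4 ± 1.82 CPM in FR1 and 41.2 ± 1.01 CPM in FR2 (SD, n = 3), at least 400-fold and 273-fold above the limit in CTRL. CCR3, a receptor of CCL5, was at 0 in CTRL and hnCD16, at 3.01 to 3.49 CPM in FR1 and at 5.49 to 5.83 CPM in FR2. All FR1 and FR2 libraries lay above all CTRL and hnCD16 libraries for both receptors. XCR1, the receptor of XCL1, did not pass the filter, with at most 0.231 CPM in any library. ACKR2, an atypical receptor that clears inflammatory CC chemokines, lay between 0.870 and 1.68 CPM in all libraries and was called in no comparison.

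Of 3 receptors tested, CCR1 and CCR3 were called in each comparison across the pairs, all higher in FR1 and FR2. Both passed the filter on low counts through FR1 and FR2 alone, so the direction of these calls was fixed in advance. Of all genes, between 38.0% and 39.5% were called in these comparisons, and between 18.3% and 19.6% were called higher. Within the pairs, edgeR, DESeq2 and limma each called 0 of 3, with 2 at an unadjusted p under 0.05 between FR1 and FR2 and 0 between hnCD16 and CTRL by edgeR. Of all genes, edgeR called 1.93% between FR1 and FR2 and 0.527% between hnCD16 and CTRL, so 0 of 3 says nothing particular about receptors. Between FR1 and FR2, CCR1 was 1.46-fold higher in FR1 (95% interval 1.34 to 1.60, adjusted p = 7.78e-06) and CCR3 was 1.78-fold lower (95% interval 1.43 to 2.23, adjusted p = 0.000842), both under the fold of 2. Neither ratio came near those of CCL3 and CCL4.

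**Figure D5:**
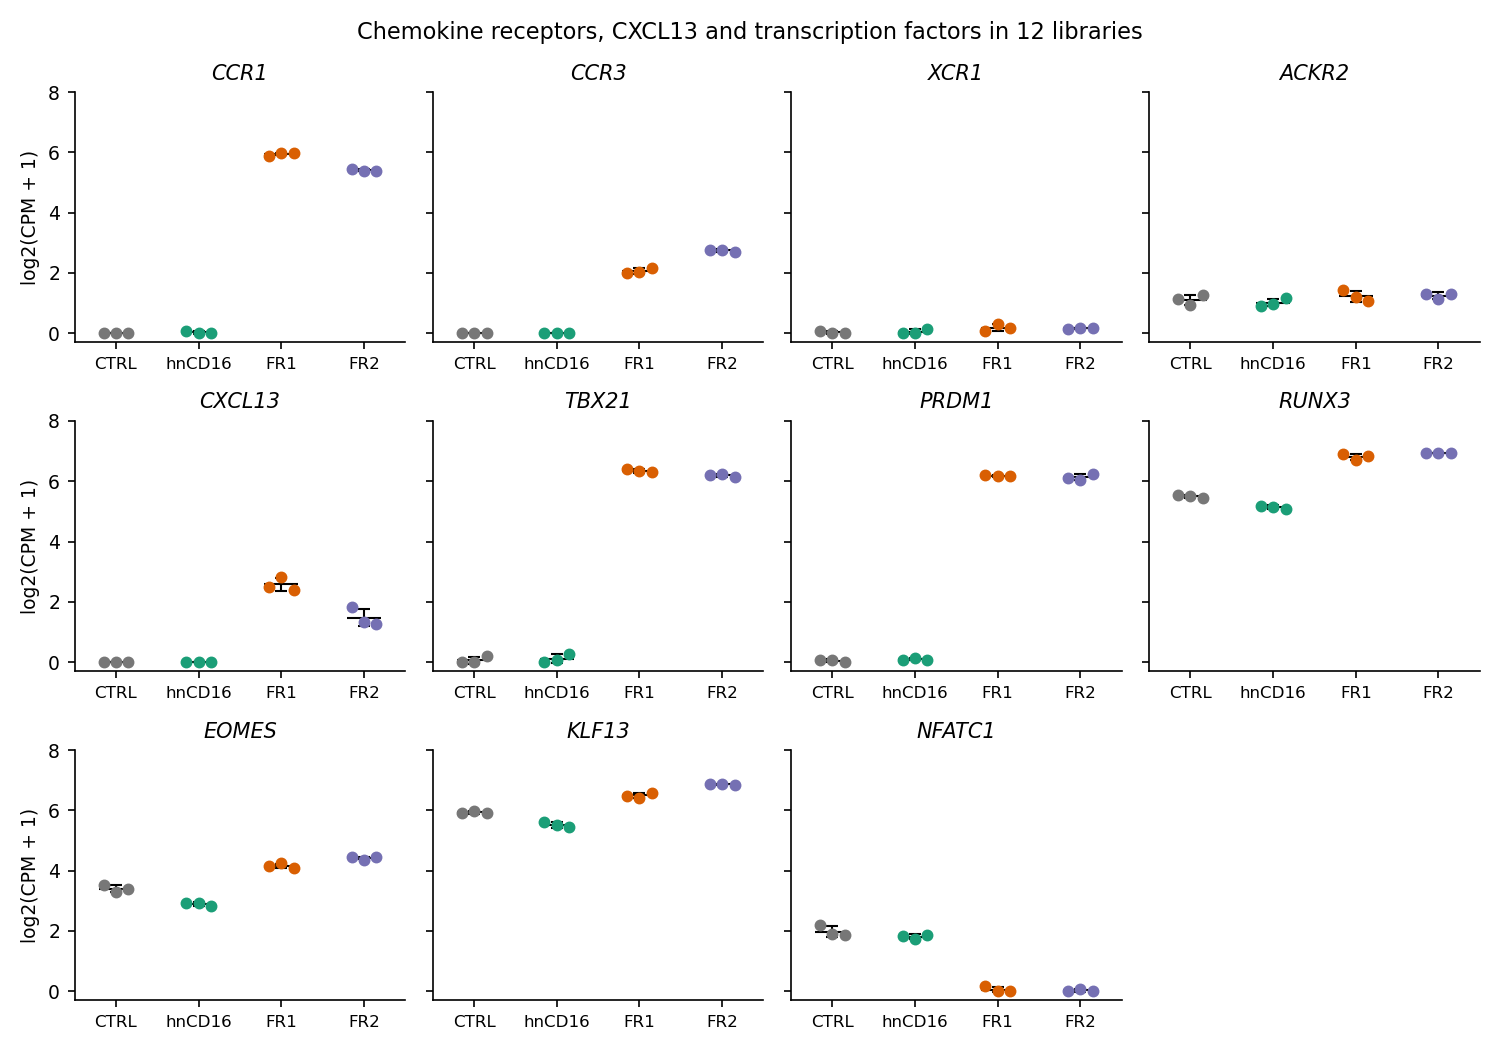
Levels of chemokine receptors, of CXCL13 and of transcription factors as log2(CPM + 1) (y axis) in the 12 libraries by group (x axis), with points for libraries and black bars for the mean ± SD (n = 3). CCR1, CCR3, CXCL13, TBX21 and PRDM1 are near 0 in CTRL and hnCD16 and present in FR1 and FR2, and NFATC1 shows the reverse.

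Of 39 other chemokine ligands listed, 24 were in the table and 8 were tested. CXCL13, a B cell attractant made by some activated T cells, was at 0 in CTRL and hnCD16, at 5.03 ± 0.969 CPM in FR1 and at 1.83 ± 0.602 CPM in FR2 (SD, n = 3). It was 2.75-fold higher in FR1 than in FR2 (95% interval 1.94 to 3.88, adjusted p = 0.000359). CCL16 was the other 1 of the 8 called between FR1 and FR2 (2.03-fold, adjusted p = 0.0416), where 1.93% of all genes were called. Its FR1 range of 0.743 to 1.68 CPM, however, overlapped with the FR2 range of 0.458 to 0.895 CPM. In each comparison across the pairs, 2 were higher in FR1 and FR2, CXCL13 and CXCL10, and CXCL3 was lower. That is 3 of 8, near the share of all genes called there (38.0% to 39.5%), so the count says nothing particular about chemokines. CXCL10 was at 0 and CXCL3 at 0.409 to 1.03 CPM in CTRL and hnCD16, where CXCL10 had 0.347 to 0.915 CPM and CXCL3 0 in FR1 and FR2. CCL16, CXCL10 and CXCL3 were named after their values were seen. DESeq2 and limma each called 1 of the 8 between FR1 and FR2. Between hnCD16 and CTRL, edgeR called 0 of 8, where 0.527% of all genes were called, with 0 at an unadjusted p under 0.05 and 0 by DESeq2 or limma.

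Transcription factors known from effector lymphocytes were followed in a list of 10 genes, all tested. Across the pairs, 4 (FR1 against CTRL), 5 (FR2 against CTRL), 5 (FR1 against hnCD16) and 6 (FR2 against hnCD16) of 10 were called. Of all genes, 38.0%, 38.2%, 38.3% and 39.5% were called there, in the same order. The counts were not tested against these shares. TBX21, the master factor of type 1 effector cells, had between 0 and 0.213 CPM in CTRL and hnCD16 and between 70.0 and 83.3 CPM in FR1 and FR2. PRDM1, which encodes BLIMP1, had at most 0.108 CPM in CTRL and hnCD16 and between 65.2 and 75.5 CPM in FR1 and FR2. RUNX3, which acts in cytotoxic lineages, was 2.53-fold higher in FR1 and 2.76-fold higher in FR2 than in CTRL, with adjusted p = 2.88e-13 and 7.33e-14. EOMES, a relative of TBX21, was called in 3 of the 4 comparisons across the pairs and missed the fold of 2 in FR1 against CTRL (1.75-fold, adjusted p = 5.9e-08). KLF13, a factor known to act on the CCL5 gene in T cells, was called in FR2 against hnCD16 alone (2.57-fold, adjusted p = 4.34e-13). NFATC1 was the 1 factor called lower in FR1 and FR2, with 2.32 to 3.53 CPM in CTRL and hnCD16 and at most 0.116 CPM in the others. Between FR1 and FR2, edgeR, DESeq2 and limma each called 0 of 10 factors, with 3 at an unadjusted p under 0.05 by edgeR. Between hnCD16 and CTRL each called 0 of 10, with 6 at that p. By edgeR, 1.93% and 0.527% of all genes were called in these 2 comparisons, so 0 of 10 says nothing particular about factors. At an adjusted p alone, KLF13 (0.772-fold, adjusted p = 8.97e-05) and EOMES (0.826-fold, adjusted p = 0.00839) lay lower in FR1 than in FR2.

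The genes most like each ligand were taken as those with the smallest root mean square difference in centred log2(CPM + 1) over the 12 libraries, among 12340 genes. For CCL3 these were CCL3L3 (0.596), GNLY (0.650) and CCL3L1 (0.738), of which GNLY had 29.4 ± 1.96 CPM in FR1 and 9.54 ± 0.632 CPM in FR2. For CCL4 they were RGS1 (0.483), CCL3L1 (0.516) and CXCL13 (0.548), and RGS1, a regulator of G protein signalling, had 30.7 ± 2.45 CPM in FR1, 5.92 ± 0.423 CPM in FR2 and 0.954 ± 0.169 CPM in CTRL. For CCL5 they were PHACTR2 (0.148), STEAP1 (0.201) and GBP5 (0.201), of which GBP5, an interferon-induced GTPase, had 24.0 ± 0.567 CPM in CTRL and 361 ± 13.1 CPM in FR1. For XCL1 they were CCDC88A (0.0704), ZNF605 (0.103) and ZNF91 (0.130), and CCDC88A had 76.2 ± 16.6 CPM in CTRL and 11.5 ± 0.572 CPM in FR1. The likeness was computed over all libraries, in which the split between the pairs takes part, and it is a description. The 1 added to CPM shrinks differences at low levels, so genes named as alike can differ in fold. CCDC88A kept 11.5 CPM in FR1, where XCL1 was at 0.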

How the data were processed

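The authors removed ribosomal RNA (per the labels, oligo(dT) beads were also used), cleaned the reads (SOAPnuke), aligned them (HISAT2 2.1.0, GRCh38.p13) and estimated expression by RSEM 1.3.1, with Bowtie2 2.3.4.3 also listed in the submitters' processing notes. The deposited expected counts are RSEM estimates per gene and transcript without normalization, and the deposited TPM values come from the same run. Use of strand and the annotation release are not given in the sources used here. Expected counts were rounded and fitted for all 12 libraries in 1 model of 4 groups with edgeR 4.0.16 (TMM, filterByExpr, quasi-likelihood test) in R 4.3.3. Benjamini-Hochberg adjustment ran over 13657 genes or 56640 transcripts, and a call needed an adjusted p up to 0.05 and an absolute log2 fold change from 1, the study's own limits. Bounds took 3 counts per library as the limit. On simulated FR1 and FR2 counts, 200 of 200 genes changed by a log2 of 2 were called, with 1 unchanged gene called, over 13405 genes. The changed genes had a mean of at least 1 CPM, and 1 dispersion served for all genes. CCL4L1 and CCL4L2, with means of 0.559 and 0.595 CPM over the 12 libraries, lay below that level. limma 3.58.1, with 1 or 0.1 added to TPM before log2, DESeq2 1.42.0, other scalings and filters, left-out libraries and a replicate block were alternatives. Sequences came from GENCODE v44 and RefSeq. The members and gene lists were chosen with earlier results of these data known. The genes named are all members, copies of CCL3, listed receptors, called ligands and factors with a mean of at least 1 CPM, the 3 genes most like each ligand with that mean, and construct genes. CCL16, CXCL10 and CXCL3, under that mean, and single cell type markers from the lists were named after their values were seen. Some values and sequences are not reported here.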

Additional observations from a re-analysis of the deposited data

Results flagged for a closer look

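For 4 ligands the change against hnCD16 differed between the FR1 and FR2 constructs, tested as the direct contrast of FR1 with FR2 in edgeR. The log2 fold change of FR1 against hnCD16 minus that of FR2 against hnCD16 was 3.50 for CCL3, 3.67 for CCL4, 1.43 for CCL4L1 and 3.65 for CCL4L2. Every FR1 library lay above every FR2 library for each of these genes. The values of the copies are uncertain because they share reads.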

How the results depend on the processing

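The counts of called ligand genes kept their direction under each alternative run, and no log2 fold change of a called ligand changed sign. With at least 10 counts in every library, CCL5 was the sole gene left to test: 1 of 1 was called in each comparison across the pairs and 0 between FR1 and FR2, and for transcripts 3 of 3 and 0. With the 2 compared groups fitted alone, 3 of 3 tested genes were called in FR2 against CTRL and in FR2 against hnCD16. Without the fold threshold, CCL5 made 1 call between hnCD16 and CTRL. With near-identical copies summed, 2 of 4 were called between FR1 and FR2, the CCL3 and CCL4 sums. With placements of 1 accession summed, an alternative chosen after seeing the data, 6 accessions were called in FR1 against CTRL, 6 in FR1 against hnCD16 and 1 in FR1 against FR2. CCL4L1 missed the fold threshold between FR1 and FR2 on log2(TPM + 1), at 0.99, as did CCL4L2 in FR2 against CTRL and against hnCD16, at 0.40 in both. Leaving out each library gave 0 transcript calls (lowest 0, highest 0) between FR1 and FR2, against 3 with all libraries, and the cause was not tested.

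The labels give shared replicate numbers, but same-numbered libraries did not deviate together in every pair (r = 0.338, 0.0196 and 0.404 for hnCD16 and CTRL, and between -0.102 and 0.0075 for FR1 and FR2). With the replicate block, the transcript calls between FR1 and FR2 went from 3 to 0, and the gene calls stayed at 4. Depth limits CCL4L2 in FR2, XCL2 and XCR1, each near 3 counts per library.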
